A study of Arabidopsis thaliana with 6 samples.

Results

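LATERAL ORGAN BOUNDARIES DOMAIN (LBD) genes known from the pericycle, the lateral root and the vascular cambium were followed in sorted cells of the Arabidopsis thaliana root. The list held LBD16, LBD29, LBD18, LBD33, LBD14, LBD4, LBD3, LBD11, LBD1 and LBD25. A gene entered when its symbol or a synonym matched a probe set annotated to that gene alone, and the brightest such probe set stood for it. Of the 10 listed genes, 2 could be followed, LBD16 (AT2G42430) and LBD29 (AT3G58190), among 13355 genes with such a probe set in the series. The other 8 had no named probe set and were not analysed here. Of 22746 tested probe sets, 8730 carried no gene name in the annotation used. Whether any of these belongs to a listed gene was not checked. Genes called measured below are those with a single-gene probe set. LBD16 lies on chromosome 2 and LBD29 on chromosome 3. The protein-coding gene that follows LBD16 in the gene table is ASL15, which carries the synonym LBD17 and likewise had no named probe set.

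The series holds 6 arrays, 3 from cells sorted on WOX5::GFP and 3 from cells sorted on pTMO5::GFP, all from roots of Col-0 seedlings grown for 5 days on standard medium, with no further treatment or mutation in the labels. WOX5 is a homeobox gene used to mark the quiescent centre, whose rarely dividing cells maintain the stem cells around them, and TMO5 is a bHLH transcription factor gene of young xylem cells. The descriptions name the WOX5 cells as quiescent centre and the TMO5 cells as xylem, the cell type tag has these names exchanged, and the groups are called here by their reporter. Either promoter defines the sorted population, and the labels leave it unsaid whether replicates were grown and sorted separately, so the p-values rest on a spread between arrays that could be technical alone.

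LBD proteins are plant-specific transcription factors that bind DNA through a conserved domain with a cysteine-rich motif. In the root, auxin removes Aux/IAA repressors, which frees the auxin response factors ARF7 and ARF19 to switch on LBD16 and LBD29 directly. LBD16 acts in pericycle founder cells as they polarise and divide asymmetrically, and LBD16, LBD18 and LBD29 act in part redundantly in lateral root formation. LBD1, LBD3, LBD4 and LBD11 are known instead from cytokinin-driven growth of the root cambium, and none of these 4 had a named probe set.

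Facts about the arrays bear on both genes, because both gave low signal. The 27 bacterial control probe sets without a plant target served as background, and their 95th percentile ran from 25.2 to 40.0 intensity units on the WOX5 arrays and from 24.8 to 28.7 on the TMO5 arrays. Median intensities of all probe sets were 91.6 to 92.5 on WOX5 and 68.1 to 74.6 on TMO5 arrays. WOX5 replicate 2 stood apart, with an SD of log2 differences of 0.60 from replicate 1 and 0.59 from replicate 3, against 0.34 between those, over the brighter part of the probe sets. Of the quiescent centre markers, 4 of 8 were measured, AGL42, BBM, JKD and BRL1. All 4 were higher in WOX5 cells (limma adjusted p up to 0.048), as were 14.3% of all tested probe sets. Summed intensities were 1636 to 2841 against 645 to 714 in TMO5 cells, and most of each sum was BBM, at 1055 to 2036 against 585 to 666. AGL42, JKD and BRL1 were 14.7-fold, 11.9-fold and 11.3-fold higher in WOX5 cells. These folds rest on TMO5 values near background, with AGL42 and JKD above it on 1 TMO5 array each and BRL1 on 0. BBM lost its call in 9 of 16 alternative analyses, with adjusted p up to 0.13. Of 17 xylem markers 4 were measured, and IAA20 was higher, PHV lower, and LHW and IAA30 did not pass, with summed intensities of 2372 to 3304 against 2220 to 2667. PHV and IAA20 each lost the call in 4 of 16 alternatives, with adjusted p up to 0.069 and 0.070. WOX5 and TMO5 had no named probe set.

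LBD16 was higher in WOX5 cells. Its intensity was 74.6, 66.9 and 74.9 on WOX5 replicates 1, 2 and 3, and 34.7, 26.4 and 31.8 on TMO5 replicates 1, 2 and 3. The groups did not overlap, and the lowest WOX5 array, replicate 2, lay well above the highest TMO5 array, replicate 1. Group means were 72.2 ± 4.56 (SD, n = 3) and 31.0 ± 4.18 (SD, n = 3). The difference was 1.23 ± 0.17 on the log2 scale (SE), or 2.34-fold with a 95% interval of 1.76-fold to 3.12-fold (limma adjusted p = 0.0065). Of all 22746 tested probe sets, 14.3% passed as higher in WOX5 cells, and in 24.4% every WOX5 array lay above every TMO5 array.

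**Figure D1:**
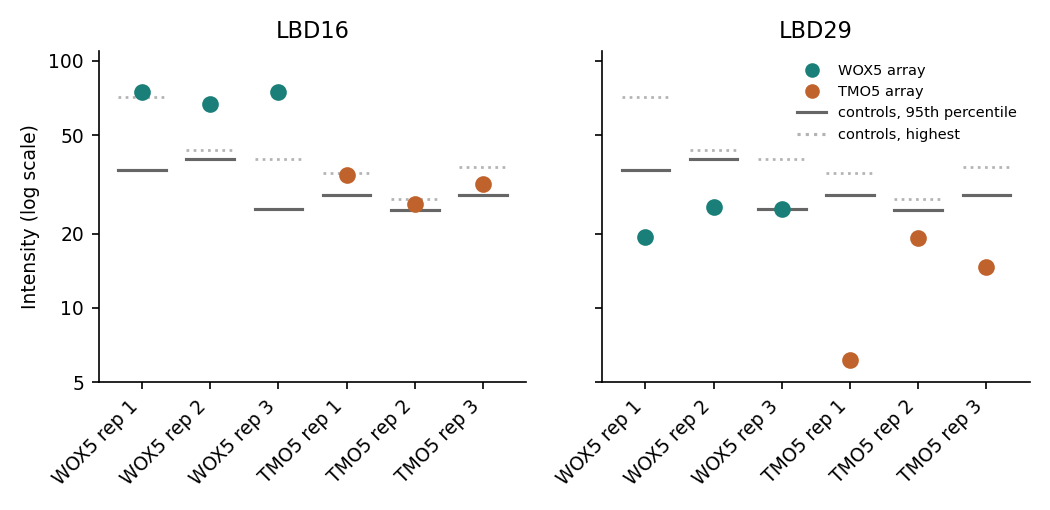
Intensity of LBD16 and LBD29 on each array, on a log axis, with the 95th percentile (solid bar) and the highest value (dotted bar) of 27 bacterial control probe sets on the same array. LBD16 lies at 66.9 to 74.9 on WOX5 and 26.4 to 34.7 on TMO5 arrays, whereas LBD29 lies at or under the solid bar on all 6 arrays.

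LBD16 was a dim signal in both populations. It exceeded the 95th percentile of the controls on all 6 arrays, by 1.67 to 2.98 times on WOX5 arrays but only by 1.06 to 1.21 times on TMO5 arrays. On the TMO5 arrays it lay under the single brightest control each time, at 0.854 to 0.988 of it, and on WOX5 arrays it lay above it, at 1.05 to 1.86 times. The TMO5 level of LBD16 was therefore close to the level at which background is read. Raising all values to the 95th percentile of the controls left the log2 difference at 1.23, since no LBD16 value lay under it. Subtracting the median control from each array moved the fold from 2.34 to 3.62 (limma adjusted p = 0.011). Both of these background settings were chosen after the data were seen.

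The 9 possible pairs of a WOX5 with a TMO5 array gave LBD16 ratios from 1.93 to 2.84, with a median of 2.35. Replicate arrays varied little, with a coefficient of variation of 6.32% in WOX5 and 13.5% in TMO5 cells. Without the divergent WOX5 replicate 2 the log2 difference was 1.28 (limma adjusted p = 0.015). LBD16 passed in all 16 alternative analyses, and its log2 difference ranged from 0.85 with arrays centred on their medians to 1.86 with the median control subtracted. The floors, the filter on dim probe sets and averaging of probe sets left the LBD16 values as they were. These settings could move only its variance estimate and its adjusted p.

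Among the probe sets that rose, the fitted difference of LBD16 was under the median, and its TMO5 level was close to background. The median log2 difference was 0.03 over all tested probe sets and 1.60 over the 3252 that passed as higher in WOX5 cells, and 67.7% of those had a larger difference than LBD16. Of the tenth of probe sets by mean log2 intensity that held LBD16, 20.1% passed as higher and 17.1% had a larger difference.

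**Figure D2:**
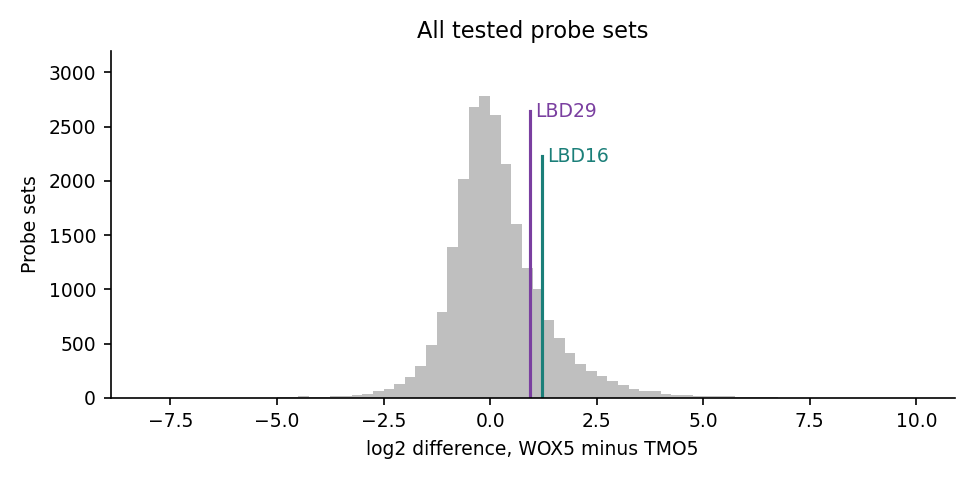
Histogram of log2 differences, WOX5 minus TMO5, for 22746 probe sets in bins of 0.25, with vertical lines at LBD16 (1.23) and LBD29 (0.95). Both lie on the right shoulder, and 14.1% of all probe sets exceed LBD16.

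LBD29 could not be separated from background. Its intensity was 19.3, 25.6 and 25.2 on WOX5 replicates 1, 2 and 3, and 6.16, 19.2 and 14.7 on TMO5 replicates 1, 2 and 3. Every WOX5 array was above every TMO5 array, which also held for 24.4% of all tested probe sets. WOX5 replicate 1 and TMO5 replicate 2 were almost equal, with a ratio of 1.005. On WOX5 replicate 3 the value matched the 95th percentile of the controls (both 25.2), and on the other 5 arrays it was 0.215 to 0.775 of that level. Group means were 23.4 ± 3.51 and 13.4 ± 6.64 (SD, n = 3). The log2 difference of 0.95 ± 0.45 (SE), with a 95% interval of -0.17 to 2.06, did not pass (limma adjusted p = 0.18). Like the values under other settings, it is the fitted difference of signals within or at background, and it gives no size for a change of the transcript.

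The low value of TMO5 replicate 1 weighed on LBD29. Without it the log2 difference was 0.46 (limma adjusted p = 0.26). Under the background settings chosen after the data were seen, the difference was 0.28 with values raised to the 95th percentile of the controls (limma adjusted p = 0.29) and 2.73 with the median control subtracted (limma adjusted p = 0.060). LBD29 did not pass in any of the 15 alternatives in which it was tested, with adjusted p from 0.060 to 0.40. Of the tenth of probe sets by mean log2 intensity that held LBD29, 4.27% passed as higher in WOX5 cells.

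LBD16 passed and LBD29 did not. Whether their changes differ was not tested, because LBD29 was not measured above background.

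**Figure D3:**
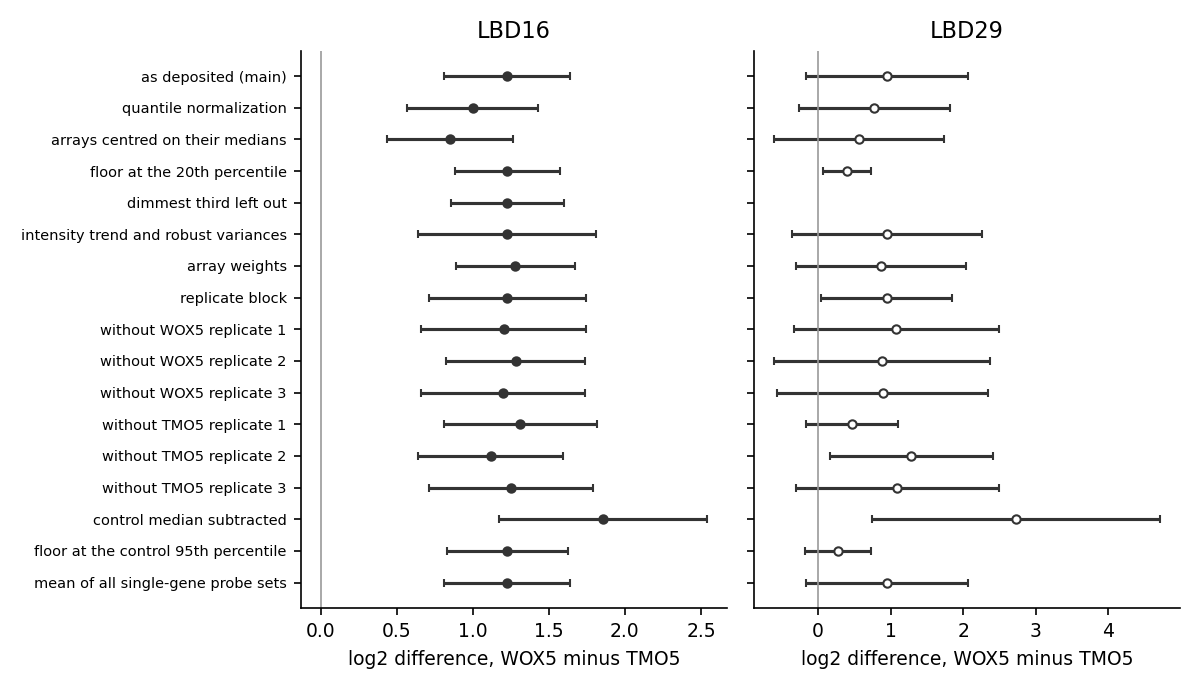
Log2 difference, WOX5 minus TMO5, of LBD16 (left) and LBD29 (right) under the main analysis and each alternative, with 95% intervals. Filled points passed an adjusted p of 0.05, which LBD16 did under every one of these settings and LBD29 under none; LBD29 has no point where dim probe sets were left out before the fit.

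The rest of the LBD family was almost without named probe sets. Of 33 further loci listed for the family, 1 had a single-gene probe set, AT5G15060, whose entry in the gene table carries no LBD symbol. It stood at 22.6, 39.5 and 13.1 on the WOX5 arrays and at 36.3, 21.4 and 32.9 on the TMO5 arrays. The groups overlapped, and only 2 TMO5 arrays lay above background. Its log2 difference was -0.37 ± 0.45 (SE; limma adjusted p = 0.59), so 0 of 1 passed, and 0 at an unadjusted p under 0.05.

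Upstream of the LBD genes, the list of auxin perception, transport and response held 24 genes, of which 1 was measured and was lower in WOX5 cells. This was IAA18, an Aux/IAA repressor known from a stabilised form that reduces lateral root formation. Its intensity was 66.6, 63.2 and 61.5 on WOX5 arrays and 157, 140 and 152 on TMO5 arrays, above background on all 6. The log2 difference was -1.23 ± 0.14 (SE), or 2.34-fold lower in WOX5 cells (limma adjusted p = 0.0039), the same size as the LBD16 change and opposite in sign. Over all tested probe sets, 9.49% passed as lower. ARF7, ARF19 and IAA14 had no named probe set.

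Among 20 genes of the primordium and LBD targets, 2 were measured, of which 1 was higher in WOX5 cells. RALFL34 encodes a small signalling peptide that acts during the first divisions of lateral root founder cells. It stood at 1818, 1789 and 1631 on WOX5 arrays and at 347, 449 and 407 on TMO5 arrays. All values were far above background, and the groups did not overlap. The log2 difference was 2.13 ± 0.16 (SE), or 4.37-fold (limma adjusted p = 0.0015). PUCHI, an AP2-domain factor that limits cell proliferation in the primordium, had 31.9, 36.8 and 22.6 on WOX5 and 30.9, 20.1 and 27.6 on TMO5 arrays. These overlapped and reached above background on 1 TMO5 array only, with a log2 difference of 0.21 ± 0.27 (SE; limma adjusted p = 0.61).

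The list for cytokinin signalling and the cambium, where LBD1, LBD3, LBD4 and LBD11 act, held 18 genes, of which 2 were measured and 0 passed with limma, also at an unadjusted p under 0.05. LHW, the dimerisation partner of TMO5, stood at 632, 949 and 664 on WOX5 and at 673, 608 and 819 on TMO5 arrays. The groups overlapped, with a log2 difference of 0.08 ± 0.23 (SE) and a 95% interval for the ratio of 0.716 to 1.57 (limma adjusted p = 0.82). AT5G02460, which has no symbol in the gene table, ran from 9.55 to 37.9 on WOX5 and from 10.5 to 21.7 on TMO5 arrays, above background on 1 WOX5 array only (limma adjusted p = 0.57).

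Over the 62 genes of these 3 lists, 5 were measured, 1 was higher, 1 was lower and 3 did not pass. Their median log2 difference was 0.21, beside 0.03 over all tested probe sets, of which 23.8% passed in either direction. That median of 0.21 is the value of PUCHI, which was above background on 1 TMO5 array only. The counts were the same without WOX5 replicate 2.

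**Figure D4:**
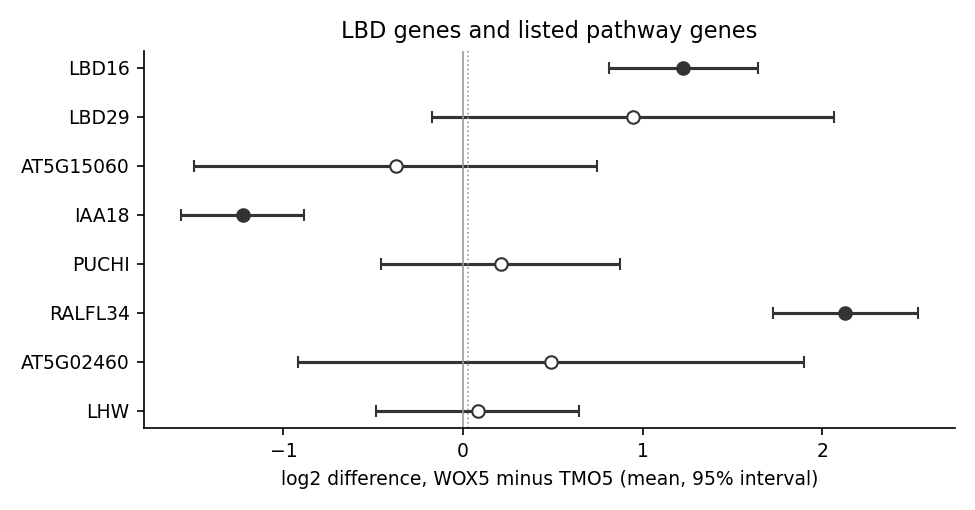
Log2 difference, WOX5 minus TMO5, with 95% intervals for the 2 measured LBD genes, AT5G15060 and the 5 measured genes of the lateral root and cambium lists. Filled points passed an adjusted p of 0.05, namely LBD16 (1.23), RALFL34 (2.13) and IAA18 (-1.23); the dotted line marks the median of all tested probe sets (0.03).

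The genes whose profile over the 6 arrays was most like that of LBD16 were known here by locus alone. After each profile was centred on its own mean, AT1G66180 differed from LBD16 by a root mean square of 0.032 log2 units, AT2G21860 by 0.056 and AT3G05500 by 0.057, out of 13354 genes compared. AT1G66180 stood at 208, 192 and 217 on WOX5 and 94.0, 73.7 and 90.7 on TMO5 arrays, so that, as for LBD16, replicate 2 was the lowest array of either group. The points are 6 arrays that share a scaling and fall into 2 groups, so this is a description of likeness only. LBD29 was above background on too few arrays for such a comparison.

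Markers of other cell types were followed beside LBD16, as it is known from the pericycle. None of the 3 listed pericycle markers (PHO1, SKOR and GATA23) had a named probe set, so a share of pericycle cells in either sort could not be read. Of 5 endodermis and cortex markers 2 were measured and 1 was higher in WOX5 cells, AT1G62500, listed as the cortex gene CO2. It stood at 521, 249 and 488 on WOX5 and at 30.6, 42.0 and 26.6 on TMO5 arrays, 12.3-fold higher (limma adjusted p = 0.0026). This fold rests on TMO5 values near background, with AT1G62500 above it on 2 TMO5 arrays. GSO1 did not pass (limma adjusted p = 0.87). Summed over both markers, intensities were 280 to 569 in WOX5 and 64.6 to 82.2 in TMO5 cells. Root cap (1 of 5 measured, 22.4 to 141 against 16.6 to 93.3), phloem (1 of 5, 29.9 to 63.0 against 56.3 to 72.4) and epidermis and root hair markers (2 of 5, summed 96.2 to 135 against 149 to 349) did not pass. Control probe sets without a plant target also gave signal, so a marker intensity alone does not show that its cell type was present. The part of cells of other types in the LBD16 difference was not tested. In sorted populations, fewer cells of a type and less RNA per cell cannot be told apart. Each reporter was used on its own arrays, so handling and cell population cannot be told apart either.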

How the data were processed

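Biotin-labelled RNA of sorted root cells was measured with Affymetrix reagents, per the labels' protocols. For the software behind the values, and for the labelling protocol of each array, the sources used here give no answer. The deposited table holds intensity values on a linear scale for 22810 probe sets, and the authors' values have a mean of 250.0 on each array after trimming 2% at each end. Values under 1 were raised to 1, log2 was taken and 64 controls were removed. The remaining 22746 probe sets were fitted in R 4.3.3 with lmFit and eBayes of limma 3.58.1, as WOX5 minus TMO5, with Benjamini-Hochberg adjustment at 0.05. No read depth applies, and the number of arrays limits precision. Gene names came from the platform annotation, updated through the TAIR10.1 gene table; no coordinates or sequences are printed. The members and lists were chosen with earlier results of these data known. Named were all listed LBD and family genes with a probe set, pathway genes that passed, and the 3 genes most like a member; PUCHI, LHW and AT5G02460 complete their lists, and marker genes were named after their values were seen. Same-numbered arrays were not treated as pairs. Alternatives covered scaling, floor, filter, variance model, array weights, replicate block, probe set choice, background and leaving out each array.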

Additional observations from a re-analysis of the deposited data

How the results depend on the processing

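LBD16 kept its direction and its call under all 16 alternatives, with log2 differences from 0.85 to 1.86 and adjusted p up to 0.041. Some of these, namely the floors, the dim filter and averaging of probe sets, did not change the LBD16 values. LBD29 kept its direction and did not pass under 15. IAA18 (-1.61 to -1.19) and RALFL34 (1.75 to 2.22) also passed under all 16. Over all probe sets the median log2 difference moved from 0.03 to -0.14 under quantile normalization and to -0.35 when arrays were centred on their medians, and LBD16 stood 1.20, 1.14 and 1.20 above it. The value with centred arrays equals the main one by construction, because centring shifts all probe sets of an array alike. Calls over all probe sets numbered 5411, against 2270 with a replicate block, 7538 with centred arrays and 2827 without TMO5 replicate 2. With the replicate block LBD16 had a limma adjusted p of 0.041 and LBD29 of 0.14, and the block changed no call among the LBD and pathway genes. Deviations of same-numbered arrays from their group means correlated at -0.02, 0.01 and -0.02, so no large shared effect of the replicate number was seen. Such correlations cannot tell whether same-numbered samples were prepared together. Signs turned only for genes that did not pass: AT5G15060 without WOX5 replicate 3 (0.021; -0.77 to 0.021 over the arrays left out) and with values raised to the control level (0.10), a setting chosen after the data were seen, PUCHI with centred arrays (-0.17), and LHW with centred arrays (-0.29), array weights (-0.011), without WOX5 replicate 2 (-0.10) and without TMO5 replicate 2 (-0.013; -0.10 to 0.20 over the arrays left out). Signal close to background limits LBD16 in TMO5 cells and LBD29 in both.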
